A study of Mus musculus with 6 samples.

Results

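Expression of 9 genes that start, hold back or dissolve blood clots was examined in primary neonatal mouse cardiomyocytes (NMCMs) under hypoxia (HO). The genes were F3, Tfpi, Thbd, Procr, Plau, Plat, Plaur, Vwf and Thbs1, chosen by name as regulators of coagulation and fibrinolysis, and each matched 1 of the 57010 genes in the count table. RNA-seq was performed on 6 libraries, 3 of cells given vehicle (HO + Vehicle, V1 to V3) and 3 of cells given the plant sterol β-sitosterol (HO + β-SITO, T4 to T6). All cells were kept in hypoxia and came from C57BL/6 mice of 1 to 3 days of age, whose cardiomyocytes were parted from fibroblasts by letting the fibroblasts attach first. For these libraries, the sources used here give neither a β-SITO dose nor a duration of hypoxia. No library of cells in normal oxygen was used here, and the sources do not say whether the libraries of a group came from separate cell preparations, so p-values measure only the spread between these libraries. The names of all 3 HO + β-SITO libraries carry a suffix that the HO + Vehicle names lack, so treatment and any separate handling of these libraries cannot be told apart.

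Clotting starts when tissue factor, the product of F3, meets factor VII of the blood, and the protease cascade that follows makes thrombin and then fibrin. The vessel lining opposes this with tissue factor pathway inhibitor (Tfpi) and with thrombomodulin (Thbd) and the endothelial protein C receptor (Procr), which turn thrombin towards activating the anticoagulant protein C. Fibrin is removed by plasmin, which urokinase (Plau, bound at the cell surface by its receptor Plaur) and tissue plasminogen activator (Plat) release from plasminogen. Von Willebrand factor (Vwf), stored in endothelial cells and megakaryocytes, tethers platelets to injured vessels, and thrombospondin-1 (Thbs1) is a large matrix and platelet glycoprotein.

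The libraries held 16694734 to 17082129 counts with vehicle (V1 to V3) and 16962152 to 18460522 with β-SITO (T4 to T6), and the 9 genes together took 0.252% to 0.287% and 0.231% to 0.237% of them. Values are given as CPM, counts scaled to a common library size with TMM factors. Genes were called changed at an adjusted p under 0.05 with more than 2-fold change in edgeR's quasi-likelihood test over 14799 genes, all 9 members among them. The cells carried markers of more than 1 type. All 12 cardiomyocyte markers searched for passed the filter. They summed to 6387 to 7399 CPM over V1 to V3 and 5804 to 9891 CPM over T4 to T6. T4 was the lowest of the 6 libraries. Of these 12 markers, 3 were called higher (Myl7, Myh7 and Nppa) and 0 lower. By adjusted p alone, 5 were higher and 2 lower (Tnnt2 and Pln). Their log2 fold changes ran from -0.47 for Tnnt2 to 2.39 for Myl7. The 9 fibroblast markers summed to 29992 to 31292 and 44614 to 45708 CPM and the 5 mesothelial markers to 68.7 to 75.7 and 96.7 to 121.9 CPM, with 0 and 1 of them called. In such bulk samples, fewer cells of a type and less RNA per cell cannot be told apart.

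β-SITO libraries held more transcript of 3 of the 9 genes, Vwf, Plau and F3, and none of the 9 was called lower. Over all tested genes 12.8% were called higher and 10.1% lower. The other 6 genes lay within 2-fold of the HO + Vehicle level. With the fold cutoff set aside, Tfpi and Plat also passed as higher, and Procr and Thbs1 passed as lower, against 33.0% of all tested genes higher and 33.8% lower by that rule. In 7 of the 9 genes no library of one group fell within the range of the other, and the same held for 70.5% of all tested genes. The median log2 fold change of the 9 genes was 0.16 and that of all tested genes -0.01.

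**Figure D1:**
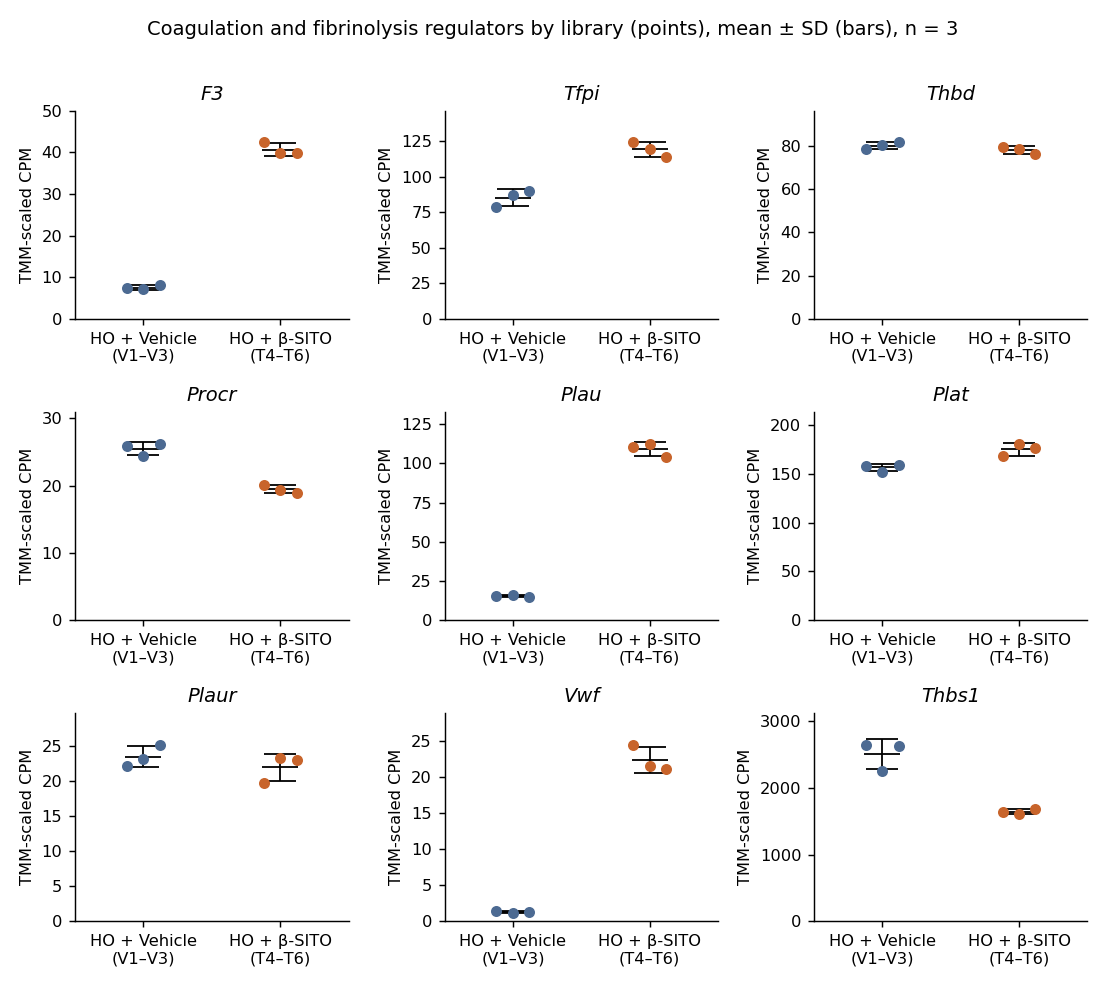
TMM-scaled CPM of the 9 genes in each library (points, vertical axes from 0), with the mean ± SD of the 3 libraries of each group. F3, Plau and Vwf sit far higher in all 3 HO + β-SITO libraries, while the points of Thbd and Plaur overlap between the groups.

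F3 encodes tissue factor, the membrane protein that triggers the clotting cascade, and lies on chromosome 3 from 121517186 to 121528697 on the plus strand (coordinates of the members are those of the deposited table, for which the labels name GRCm39). Its level was 7.39, 7.08 and 8.12 CPM in V1, V2 and V3 and 42.4, 39.7 and 39.9 CPM in T4, T5 and T6. Every HO + β-SITO library was thus above every HO + Vehicle library, with little spread inside either group. F3 rose 5.40-fold, a log2 fold change of 2.43 (SE 0.09, edgeR, adjusted p = 1.42e-12). The exact permutation test for this gene gave p = 0.1, the smallest that 3 libraries against 3 allow, as it did for each of the 7 genes whose groups did not overlap.

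The promoter of F3 is shown because F3 is the one gene among the 3 that rose for which a RefSeq promoter was at hand. Promoters of Procr and Plaur are shown beside it, since all 3 hold the AP-1 motif and only F3 was called. Each run covers 250 bases before to 50 bases after the start site, from the gene's own strand, on GRCm38.p6, at chr3:121723287-121723586 for F3 (plus strand), chr2:155750967-155751266 for Procr (plus strand) and chr7:24462233-24462532 for Plaur (plus strand). Capitals mark matches, on either strand, to any of the motifs searched:
F3: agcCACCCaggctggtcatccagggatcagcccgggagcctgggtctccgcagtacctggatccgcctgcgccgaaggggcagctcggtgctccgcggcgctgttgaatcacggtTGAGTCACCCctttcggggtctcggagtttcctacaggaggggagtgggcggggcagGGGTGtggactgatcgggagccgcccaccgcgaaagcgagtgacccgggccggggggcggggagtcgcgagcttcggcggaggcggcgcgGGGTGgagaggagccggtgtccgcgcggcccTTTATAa
Procr: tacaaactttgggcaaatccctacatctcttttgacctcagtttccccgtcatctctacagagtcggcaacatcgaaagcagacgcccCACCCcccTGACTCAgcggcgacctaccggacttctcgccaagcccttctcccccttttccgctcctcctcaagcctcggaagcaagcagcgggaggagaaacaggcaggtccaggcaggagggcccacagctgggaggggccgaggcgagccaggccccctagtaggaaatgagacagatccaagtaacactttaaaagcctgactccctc
Plaur: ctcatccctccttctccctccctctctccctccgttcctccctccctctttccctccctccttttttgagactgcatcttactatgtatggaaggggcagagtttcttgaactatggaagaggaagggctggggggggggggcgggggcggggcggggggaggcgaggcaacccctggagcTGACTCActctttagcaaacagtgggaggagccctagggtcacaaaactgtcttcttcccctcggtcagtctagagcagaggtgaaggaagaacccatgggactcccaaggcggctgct

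The letters searched for on both strands were chosen for 6 kinds of motif. The AP-1 motif, TGACTCA, occurs once in each of the 3 sequences shown, from -135 to -129 in F3, from -154 to -148 in Procr and from -69 to -63 in Plaur, counted from the start site, and 5.20% of all 32851 promoters of this length hold it. The motif of KLF factors, CACCC, was found 4 times in F3, once in Procr, once at each start site of Tfpi and not in Plaur, and 57.5% of promoters hold it. In F3 the match from -130 to -126 overlaps the AP-1 match. The TATA box, TATAAA, has a match in F3 past the start site, from 43 to 48, on the opposite strand, and another at the first start site of Tfpi, from -127 to -122, also on the opposite strand, and 13.6% of promoters hold this motif. Neither start site of Tfpi had an AP-1 match. The core of the hypoxia response element, ACGTG, matched 1 stretch at the first start site of Tfpi, against 19.6% of promoters with any. This stretch is the palindrome CACGTG, so it matches once on each strand, from 16 to 20 and from 17 to 21. The motif of ETS factors, CCGGAAG, and the NF-κB motif, held by 8.86% and 8.46% of promoters, were not found in the 5 windows of these 4 genes. The table had no entry for the other 5 genes. A match describes letters in the window and is not a measured binding site.

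Tfpi, whose product inhibits the complex of tissue factor and factor VII, lies on chromosome 2 from 84263199 to 84307119 on the minus strand. It had 78.8, 86.8 and 90.2 CPM in V1 to V3 and 124.0, 119.4 and 113.8 CPM in T4 to T6. The groups did not overlap, and the difference was small beside that of F3. The log2 fold change of Tfpi was 0.48 (SE 0.06, edgeR, adjusted p = 8.71e-06), a 1.40-fold difference that exceeded the spread of the replicates but not the 2-fold cutoff. Within each library, F3 counts per 100 Tfpi counts were 9.38, 8.16 and 9.003 in V1 to V3 and 34.2, 33.3 and 35.03 in T4 to T6. This ratio, which needs no scaling between libraries, was 3.86-fold higher with β-SITO (exact permutation test, two-sided, p = 0.1).

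Thbd and Procr act together in the protein C pathway at the endothelial surface. Thbd, on chromosome 2 from 148246386 to 148250108 on the minus strand, had 78.6, 80.4 and 81.7 CPM in V1 to V3 and 79.6, 78.6 and 76.2 CPM in T4 to T6. The libraries overlapped, and no difference in Thbd was detected (log2 fold change -0.04, 95% interval -0.16 to 0.08, edgeR, adjusted p = 0.569). The sign of this value turned with scaling by library size only (0.11) or by the upper quartile (0.10), neither of which passed. Procr, on chromosome 2 from 155593037 to 155597391 on the plus strand, had 25.9, 24.3 and 26.2 CPM in V1 to V3 and 20.1, 19.4 and 18.9 CPM in T4 to T6. All HO + β-SITO libraries were below all HO + Vehicle libraries. Procr was 1.31-fold lower with β-SITO, a log2 fold change of -0.39 (SE 0.08, edgeR, adjusted p = 4.1e-04) that did not reach 2-fold.

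Plau encodes urokinase, the plasminogen activator that acts at cell surfaces, and lies on chromosome 14 from 20886728 to 20893453 on the plus strand. It had 15.3, 15.9 and 14.7 CPM in V1 to V3 and 110.6, 112.6 and 104.2 CPM in T4 to T6. The HO + Vehicle values lay close together and far below those of the HO + β-SITO libraries. Plau rose 7.13-fold, a log2 fold change of 2.83 (SE 0.07, edgeR, adjusted p = 1.5e-14). Plaur, which encodes the receptor that holds urokinase at the membrane, lies on chromosome 7 from 24161909 to 24175393 on the plus strand. Its values were 22.2, 23.1 and 25.2 CPM in V1 to V3 and 19.7, 23.3 and 23.0 CPM in T4 to T6. The groups overlapped, and the log2 fold change of -0.10 (95% interval -0.29 to 0.09) did not pass (edgeR, adjusted p = 0.352). It was 0.05 with scaling by library size only or by the upper quartile, where it did not pass either. Plau counts per 100 Plaur counts accordingly stood at 68.9, 68.8 and 58.4 in V1 to V3 and 560.7, 483.8 and 453.7 in T4 to T6, 7.64-fold higher with β-SITO (exact permutation test, two-sided, p = 0.1).

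Plat encodes tissue plasminogen activator, which works best on plasminogen bound to fibrin, and lies on chromosome 8 from 23247743 to 23272860 on the plus strand. It had 158.3, 152.2 and 159.4 CPM in V1 to V3 and 168.3, 181.0 and 176.7 CPM in T4 to T6. The groups were close and did not overlap. The log2 fold change of Plat was 0.16 (95% interval 0.04 to 0.28, edgeR, adjusted p = 0.019), a 1.12-fold difference. Without T6 the log2 fold change of Plat was 0.17 and no longer passed (adjusted p = 0.0572). With scaling by library size only the value was 0.31.

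Vwf encodes the multimeric protein that carries factor VIII in blood and tethers platelets, and lies on chromosome 6 from 125523737 to 125663642 on the plus strand. Its level was 1.39, 1.19 and 1.36 CPM in V1 to V3, from only 22, 19 and 22 counts, and 24.5, 21.5 and 21.2 CPM in T4 to T6, from 477, 383 and 408 counts. The gene was thus near the lower end of detection in the HO + Vehicle group and clearly present in the HO + β-SITO group. Vwf rose 17.0-fold, a log2 fold change of 4.09 (95% interval 3.79 to 4.38, edgeR, adjusted p = 6.78e-13). This was the largest increase of the 9 genes and ranked 59 among the 14799 tested genes by size of increase. Markers of endothelial cells moved with it: 12 of the 13 on the list were called higher, Eng being the exception (log2 fold change -0.39), and the median of the list was 1.91. Their summed level was 766 to 853 CPM over V1 to V3 and 1459 to 1488 CPM over T4 to T6. None of the 13 was at 0. Eng made up most of the HO + Vehicle sum (mean 535.5 CPM) and was at 408.9 CPM with β-SITO. The sums thus understate the rise of the other 12. Relative to Pecam1, an adhesion molecule of endothelial junctions, Vwf had 2.65, 2.53 and 2.62 counts per 100 in V1 to V3 and 13.9, 11.8 and 11.5 in T4 to T6. This ratio was 4.78-fold higher with β-SITO, and it was 4.76-fold higher with Cdh5 (VE-cadherin) in place of Pecam1 (exact permutation test, two-sided, p = 0.1 for each). Over all 13 markers taken in turn it was 2.94-fold to 22.3-fold higher, with the groups apart each time. Smooth muscle and pericyte markers were higher too (4 of 8 called, summed levels of 1101 to 1194 and 1895 to 2149 CPM). Most of these sums came from Acta2 and Pdgfrb, neither of them called (means of 561.7 and 528.2 CPM with vehicle). The part of the endothelial, smooth muscle and pericyte markers in the results for Vwf, Plau and F3 was not tested.

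Thbs1, whose product binds cells, matrix and growth factors, lies on chromosome 2 from 117942357 to 117957614 on the plus strand and had the highest level of the 9 genes per exon length. It had 2639, 2246 and 2617 CPM in V1 to V3 and 1641, 1602 and 1676 CPM in T4 to T6. V2 was the lowest HO + Vehicle library and was still above every HO + β-SITO library. Thbs1 was 1.52-fold lower with β-SITO, a log2 fold change of -0.61 (SE 0.07, edgeR, adjusted p = 1.4e-06) that did not reach 2-fold. An antisense gene that overlaps Thbs1, Gm29233, had 0 counts in all 6 libraries, and no other member overlapped an annotated gene of the table.

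Levels of different genes were compared per length, as CPM per kilobase of exon. In the HO + Vehicle group Thbs1 (411.8 ± 36.4, SD, n = 3) was followed by Plat (25.1 ± 0.618), Thbd (21.6 ± 0.411), Tfpi (15.6 ± 1.07), Procr (12.5 ± 0.499), Plaur (8.98 ± 0.584), Plau (6.46 ± 0.261), F3 (2.98 ± 0.211) and Vwf (0.0818 ± 0.00672). No neighbours in this order overlapped between libraries. In the HO + β-SITO group Thbs1 (270.0 ± 6.07) was still first, and Plau (46.1 ± 1.86) had moved from the seventh place to the second, above Plat (28.1 ± 1.03). Tfpi (21.8 ± 0.931) and Thbd (21.0 ± 0.464) were next and overlapped by these lengths. F3 (16.1 ± 0.592) stood above Procr (9.58 ± 0.296) and Plaur (8.40 ± 0.748) in this group and below both in the HO + Vehicle group. Vwf stayed last at 1.40 ± 0.113. Exon lengths that join all transcripts of a gene are long for some genes (16064 bases for Vwf, whose longest transcript has 8834). With the longest transcript instead, Plau (46.6) and Plat (43.4) overlapped between libraries in the HO + β-SITO group, so that Plau was not resolved from Plat. Tfpi (30.0) was then apart from Thbd (21.0) in that group, and Thbd overlapped with F3 (21.7) instead. In the HO + Vehicle group Thbd (21.6) and Tfpi (21.5) overlapped.

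**Figure D2:**
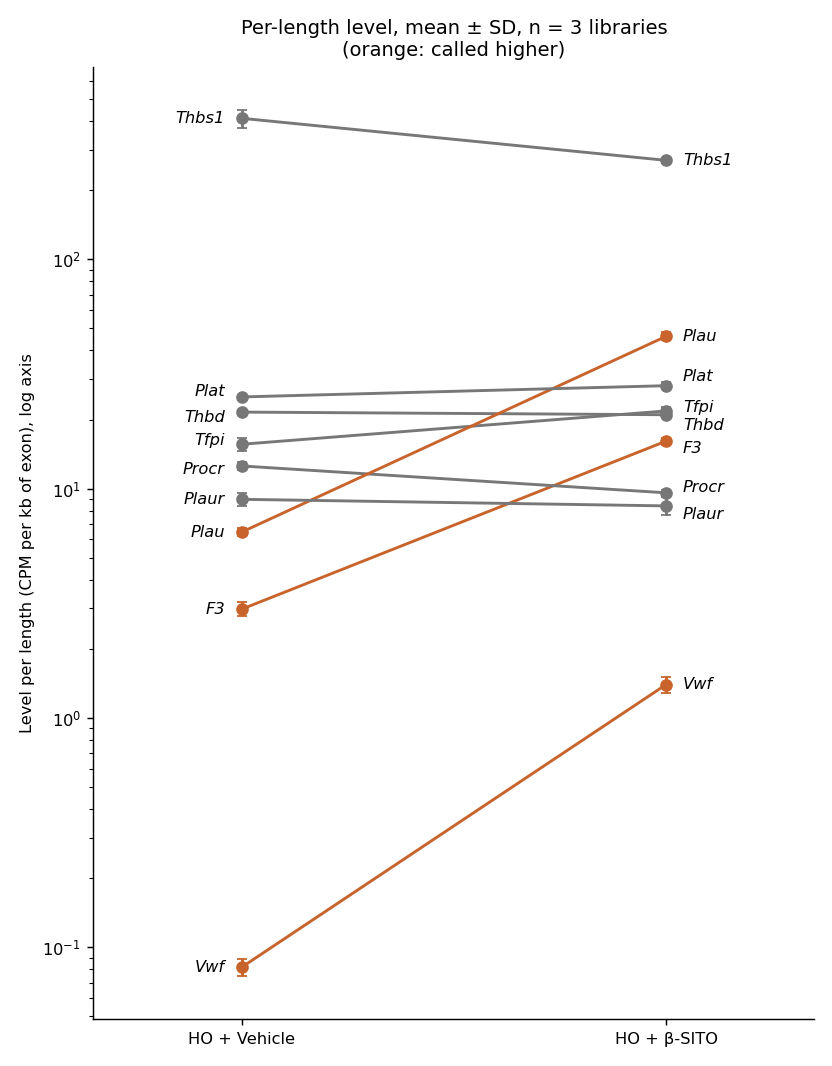
Mean level per length of the 9 genes in each group (CPM per kilobase of exon, log axis, mean ± SD, n = 3 libraries), with lines joining the groups and the called genes in orange. Plau climbs from 6.46 to 46.1, above Plat by these lengths but not resolved from it by those of the longest transcripts, and F3 crosses Procr and Plaur.

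A further 60 genes of the clotting and fibrinolysis system were listed by role, and 34 of them passed the filter on low counts. Of these, 9 were called lower and 8 higher, against 10.1% and 12.8% of all tested genes, and their median log2 fold change was 0.10. With the fold cutoff set aside, 14 passed as lower and 13 as higher, against 33.8% and 33.0% of all tested genes. Of the genes named below as not called, only Anxa2 and Itga2b did not pass that rule. Most genes of the liver's clotting factors were at or near 0, as 13 of the 21 on the coagulation factor list did not pass the filter and 4 of the 21 had no count in any library. F13a1, the fibrin-crosslinking factor XIII A chain, which macrophages also make, rose from 4.27 ± 1.14 to 154.0 ± 19.4 CPM (mean ± SD, n = 3) with a log2 fold change of 5.17 (edgeR, adjusted p = 2.9e-14). Macrophage markers moved in both directions beside it, with 7 of 12 called higher and 2 lower, none at 0, and summed levels of 1337 to 1459 CPM against 2712 to 3322 CPM. Their log2 fold changes ran from 4.79 for Mrc1 to -1.56 for Cd14 and -2.18 for Fcgr1, and were -0.06 for Adgre1 and -0.03 for Ptprc. Their part in the result for F13a1 was not tested. F10 (factor X), named after its values were seen, was called lower from 65 counts over V1 to V3 to 2 over T4 to T6, a ratio of 38.3 after scaling by effective library size (exact 95% counting interval 10.2 to 322.9). Lman1 (log2 fold change -0.67) and Mcfd2 (-0.48), which form the cargo receptor that moves factors V and VIII out of the endoplasmic reticulum, were not called.

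Among the anticoagulant genes, 3 of the 5 tested were called lower and none higher. Tfpi2, a relative of Tfpi found in extracellular matrix, fell from 47.0 ± 2.54 to 6.84 ± 0.749 CPM (mean ± SD, n = 3) with a log2 fold change of -2.78 (edgeR, adjusted p = 5.98e-13). Tfpi and Tfpi2 thus differed in direction, and F3 counts per 100 Tfpi2 counts went from 16.0 ± 0.460 to 599.9 ± 78.1 (SD, n = 3). Serpine2 (protease nexin-1, a thrombin inhibitor) fell by 1.39 and Serpind1 (heparin cofactor II) fell by 2.86 on the log2 scale. Serpind1 overlaps Pi4ka on the other strand, and whether counting used strand is not given in the sources used here. Pros1 (protein S, the cofactor of activated protein C) had a log2 fold change of 0.47 and Proz (protein Z) one of 0.93, and neither was called.

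All 3 tested protease-activated receptors were called higher. F2r, the main thrombin receptor, rose from 91.8 ± 5.44 to 326.9 ± 5.73 CPM (mean ± SD, n = 3) with a log2 fold change of 1.83 (edgeR, adjusted p = 5.6e-13). F2rl1 (1.49) and F2rl3 (1.32) rose as well, from levels of 1.25 and 0.668 CPM in the HO + Vehicle group.

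Of the 8 tested partners in fibrinolysis, 2 were called lower and 1 higher. Serpinb2, which encodes an inhibitor of urokinase, fell from 1127 counts over V1 to V3 to 1 count over T4 to T6, a ratio of 1328 after scaling by effective library size, with an exact 95% counting interval of 237.9 to 52497. Plg, which encodes plasminogen itself and is named after its values were seen, had no count in any library. Of the cell-surface partners, Mrc2, whose product associates with the urokinase receptor and takes up collagen, rose (log2 fold change 1.26), and Lrp1 (0.53), the clearance receptor for activator and inhibitor complexes, and Anxa2 (0.11), part of a plasminogen receptor, were not called.

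Of the 4 tested partners of VWF in platelet adhesion, 1 was called lower and 1 higher. Selp encodes P-selectin, which endothelial cells store in the same granules as VWF. It fell from 763.5 ± 31.9 to 14.5 ± 2.35 CPM (mean ± SD, n = 3) with a log2 fold change of -5.72 (edgeR, adjusted p = 2.83e-16). Vwf and Selp therefore differed in direction. Which cells held the Selp transcript was not tested. Neither platelet integrin gene was called. Itgb3 (log2 fold change -0.50, edgeR, adjusted p = 6.88e-05) passed as lower without the fold cutoff, and Itga2b (0.51, adjusted p = 0.101) did not pass. The gene called higher on this list was Gp1ba, a platelet receptor for VWF at 0.313 CPM in the HO + Vehicle group, named after its values were seen (log2 fold change 1.16, adjusted p = 0.0292).

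Of the 6 relatives and receptors of Thbs1, all of them tested, 2 were called lower and 2 higher. Thbs2 rose from 358.4 ± 15.6 to 1204 ± 25.9 CPM (mean ± SD, n = 3) with a log2 fold change of 1.75 (edgeR, adjusted p = 7.68e-13), and Comp, the fifth thrombospondin, rose by 2.34 on the log2 scale from a low level. Thbs4 fell by 2.38, and Thbs3 (0.90) was not called. Thbs1 counts per 100 Thbs2 counts were 710.4, 658.5 and 721.5 in V1 to V3 and 138.0, 129.9 and 141.0 in T4 to T6, 5.11-fold lower with β-SITO (exact permutation test, two-sided, p = 0.1). Of the receptors for thrombospondin-1, Cd47 fell from 749.1 ± 22.5 to 155.4 ± 3.68 CPM (mean ± SD, n = 3) with a log2 fold change of -2.27, and Cd36 (0.81) was not called.

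**Figure D3:**
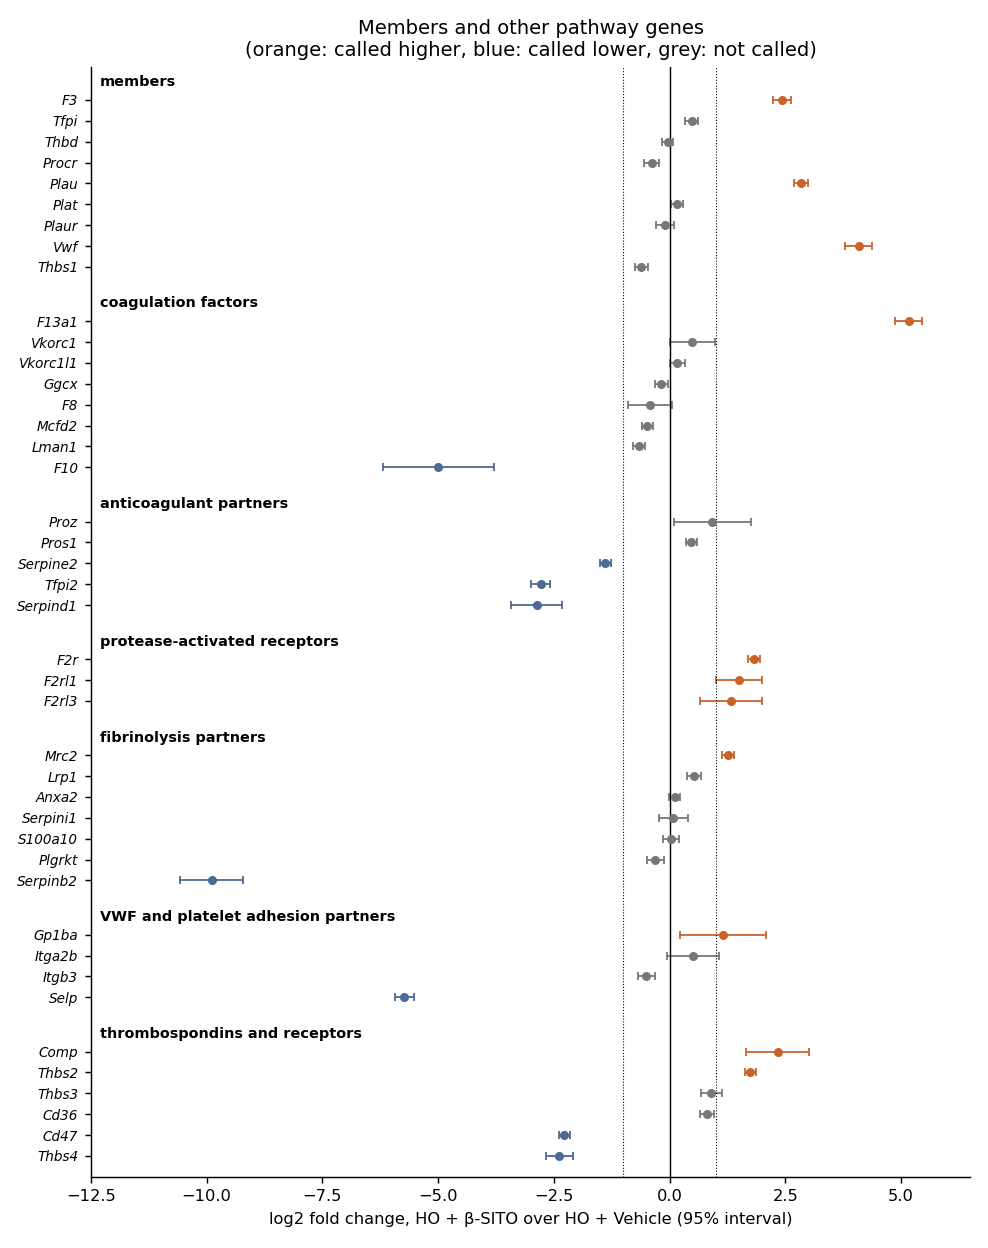
Log2 fold change of HO + β-SITO over HO + Vehicle with its 95% interval for the 9 genes and other tested genes by role, with dotted lines at 2-fold. The 3 tested receptors of the F2r family lie to the right of 0, Serpinb2 and Tfpi2 lie to the left, and the position of Serpinb2 rests on 1 count in the HO + β-SITO group.

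**Figure D4:**
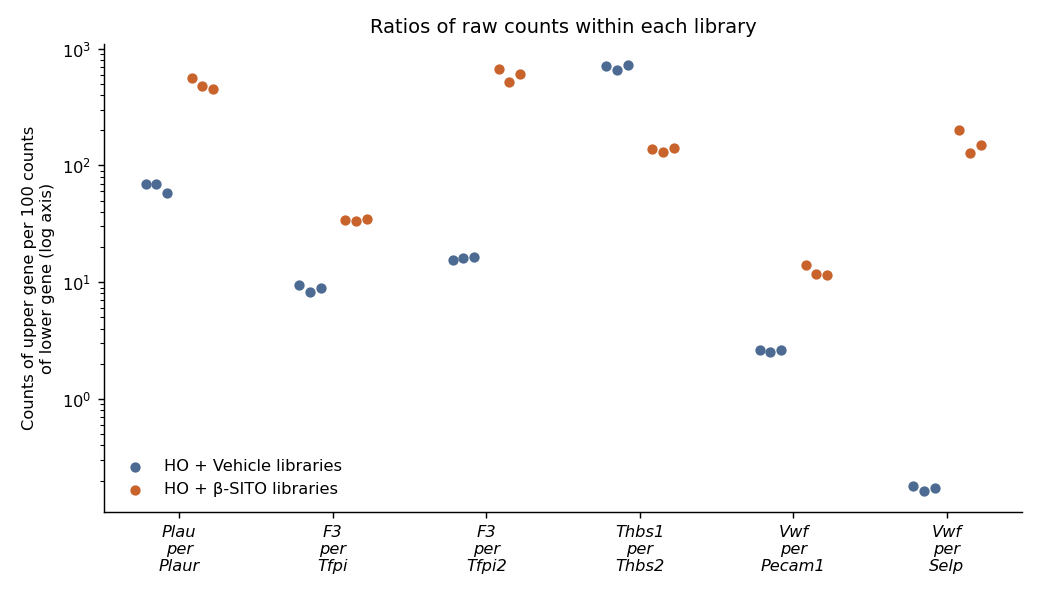
Raw counts of 1 gene per 100 counts of another within each library (log axis, 3 libraries per group), so that no scaling between libraries enters. The groups are apart for all 6 pairs shown, by 7.64-fold for Plau per Plaur and by 3.86-fold for F3 per Tfpi.

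The pattern of each gene over the 6 libraries was compared with that of 91 other pathway and cell marker genes, as the root mean square distance between log2 CPM values centred on each gene's mean. The nearest gene to F3 was Kdr (distance 0.08) and to Plau it was Emcn (0.19), both of the endothelial list. Vwf had no close neighbour, its nearest being Mrc1 at 0.42. Tfpi was nearest to Pros1 (0.06), Procr to Eng (0.06), Thbs1 to Lman1 (0.07), Thbd and Plat to Anxa2 (0.08 for each) and Plaur to Postn (0.11). These distances are descriptions over 6 libraries in 2 groups and follow mainly the difference between the groups.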

How the data were processed

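The authors deposited 1 table of raw counts per gene for all 6 libraries, made with featureCounts. The labels also name HISAT2, FastQC and GRCm39. Counting options and strand use are not given in the sources used here, and the sources differ on the library kit (ABclonal or TruSeq). From these counts, genes were filtered with filterByExpr, scaled with TMM and compared with edgeR 4.0.16 (quasi-likelihood test, group as the only term, Benjamini-Hochberg adjustment over all tested genes) in R 4.3.3. DESeq2 1.42.0 and limma 3.58.1 were alternatives, among 16 in all. The paper's threshold (adjusted p under 0.05, more than 2-fold) was kept. The procedure was checked on counts drawn with known large changes in well-counted genes only, far fewer than changed here. That check therefore does not cover genes with few counts or scaling under changes as widespread as these.

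The members and the lists were chosen with earlier results of these data known. All members are named. From each pathway list, the 4 called genes with the largest change and a mean of at least 1 CPM and the 2 most abundant genes not called are named, except 1 gene that is not reported here. The table holds no lengths, so exon lengths came from GENCODE vM21, matched by gene ID for all 69 genes. Promoters came from RefSeq (GRCm38.p6). The 14 ratios of counts within a library were chosen after the data were seen, and each has p = 0.1 before and after Benjamini-Hochberg adjustment (exact permutation test). Intervals of ratios of summed counts cover counting error only. The common biological coefficient of variation was 6.52%. Pairs of replicates differed by more than sampling noise (chi-square per degree of freedom 1.96 to 9.06). The lowest value was for T5 against T6, while T4 gave 8.57 against T5 and 9.06 against T6. The pairs of HO + Vehicle libraries gave 4.71 to 7.51.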

Additional observations from a re-analysis of the deposited data

How the results depend on the processing

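Of 260 values recomputed under the alternatives, 252 kept their side of the threshold or stayed within the tolerance set for their kind, and none reversed a call. F3, Plau and Vwf were called higher under every alternative, with log2 fold changes of 2.39 to 2.58, 2.82 to 2.98 and 4.02 to 4.23. With no fold cutoff the count of the 9 genes was 5 higher and 2 lower, that of the other pathway genes 13 higher and 14 lower, and that of all tested genes 4885 higher and 5007 lower. The median log2 fold change of the 9 genes was 0.31 with library size only and with upper quartile normalization. Library size only moved the median of all tested genes to 0.14. With a fold cutoff kept, 6 (glmTreat) to 10 (library size only, upper quartile) of the other pathway genes were called higher. The main fit had 8. Proz (log2 fold change 0.93) and Thbs3 (0.90) lay just under the 2-fold cutoff in that fit. With glmTreat, which tests against a 2-fold change, 1265 genes were called higher and 1177 lower, and F3, Plau and Vwf were still called. Without T4, the library lowest in cardiomyocyte markers, the log2 fold changes were 2.40 for F3, 2.82 for Plau and 4.02 for Vwf. With each library left out in turn, 3 of the 9 genes were called higher and 0 lower. No paired analysis was possible because the groups share no replicate numbers. The depth limits Vwf in the HO + Vehicle group (19 to 22 counts) and genes with few counts, such as F10 and Serpinb2. Whether the libraries come from separate cultures is not given in the sources used here.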

Other observations

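Members were also set against the 13 endothelial markers in the same library, a comparison chosen after the data were seen. With Pecam1, Plau stood at 30.4 ± 2.98 counts per 100 Pecam1 counts with vehicle and 60.4 ± 3.34 with β-SITO (SD, n = 3), and F3 at 14.9 ± 0.766 and 22.5 ± 1.34. Thbd stood at 159.1 ± 10.5 and 43.3 ± 1.87, Procr at 50.4 ± 1.13 and 10.8 ± 0.579, and Tfpi at 169.1 ± 17.4 and 65.9 ± 4.27. The groups did not overlap for any of these 5 ratios (exact permutation test, two-sided, p = 0.1 for each). The direction depended on the marker for some genes. F3 per marker was higher with β-SITO, with the groups apart, for 8 of the 13 markers and overlapped for the other 5, and against Kdr it was 41.6, 47.3 and 45.8 per 100 in V1 to V3 and 49.1, 44.9 and 43.7 in T4 to T6. Plau was higher for 12 of 13 markers and overlapped for Robo4, with ratios 1.23 to 9.35 times those with vehicle. The highest of these was against Eng, and the next was 3.45 against Cldn5. Thbd and Tfpi were lower for 12 of 13 markers and higher against Eng (1.27-fold and 1.82-fold), and Procr was lower for 12 and overlapped for Eng.

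Vwf and Selp, whose products share a storage granule in endothelial cells, showed the widest contrast of the 14 pairs compared. Vwf had 0.179, 0.164 and 0.173 counts per 100 Selp counts in V1 to V3 and 200.4, 127.2 and 148.9 in T4 to T6. With vehicle, Selp (mean 763.5 CPM) was above every endothelial marker on the list. Eng was the highest of these at 535.5 CPM, while Cdh5 was at 78.4, Pecam1 at 50.6 and Vwf at 1.31 CPM. These values are not divided by exon length, which was 4413 bases for Selp and 16064 for Vwf. Which cells held the Selp transcript was not tested, so the ratio need not describe a change within endothelial cells. Of the megakaryocyte and platelet markers, Pf4 (log2 fold change 1.14) and Ppbp (2.27) were called higher, while Gp9 had at most 3 counts in a library and Gp1bb had no count in any library. Gp1bb overlaps Septin5 on the same strand (1176 Septin5 counts over all libraries). How reads in shared stretches were counted is not given in the sources used here, so the lack of Gp1bb counts need not mean that its transcript was absent.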
